A study of Mus musculus with 18 samples.

Results

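The nuclear genes that encode subunits of the oxidative phosphorylation complexes were described across microglia and astrocytes sorted from mouse brain. Members were all gene symbols of the deposited tables that begin with Ndufa, Ndufb, Ndufc, Ndufs or Ndufv and a number, that are Sdha to Sdhd, or that begin with Uqcr, with Cox4 to Cox8 and a letter, or with Atp5, and 2 pseudogene symbols of these families were left out. The rule found 84 of 35869 symbols: 37 for complex I, 4 for complex II, 8 for complex III, 18 for complex IV and 17 for ATP synthase. Of these, 83 had at least 1 TPM (read count per transcript length, scaled to a fixed library total) in 4 or more of the 17 grouped libraries and are described, as did 17087 of all symbols. Cox8c, an isoform gene of complex IV known from testis, was listed at 0 in 16 of these libraries and at 0.2 TPM in KO astrocytes 1.

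The study sorted microglia and astrocytes from dissociated brains of C57BL/6 mice and compared Cx3cr1CreERT2-Tgfb1fl/fl mice (KO) with Cx3cr1CreERT2 mice (control), to ask what the TGF-β1 ligand made by microglia does for microglia. Microglia of KO mice 1 to 4 (n = 4) were set against microglia of control mice 1, 2, 4 and 5 (n = 4), and astrocytes of KO mice 1 to 4 (n = 4) against astrocytes of control mice 1 to 5 (n = 5). All mice, controls included, carried the Cx3cr1-driven, tamoxifen-inducible Cre and received 5 gavages of tamoxifen at 180 mg/kg. The Cx3cr1 promoter is known to be active in microglia and in other mononuclear phagocytes, macrophages at the brain's borders included, and not in astrocytes. The labels give neither age nor sex, and the titles tie the microglia and astrocytes of one mouse together by its number.

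Oxidative phosphorylation couples the transfer of electrons along the inner mitochondrial membrane to the making of ATP. Complex I takes electrons from NADH and complex II from succinate, complex III passes them to cytochrome c, complex IV reduces oxygen, and ATP synthase uses the proton gradient that complexes I, III and IV build. The catalytic cores of complexes I, III and IV and the membrane part of ATP synthase include proteins encoded in mitochondrial DNA. The members described here are made from nuclear genes and imported. In brain, astrocytes and microglia both have this machinery and also use glycolysis.

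The files give TPM to 1 decimal and no read counts, so the depth behind each value is unknown and no counting interval can be given. Summed microglial markers (8 genes) were at 10077 to 11029 TPM in KO microglia, at 38307 to 42078 TPM in control microglia and at 234 to 431 TPM in the astrocyte libraries, while summed astrocyte markers (8 genes) were at 77.2 to 92.2 TPM in KO microglia, at 297.8 to 630.2 TPM in control microglia and at 16316 to 29096 TPM in the astrocyte libraries. Tgfb1 had 1.8, 1.3, 1.7 and 2.0 TPM in KO microglia 1 to 4, against 3.4, 2.9, 2.9 and 2.8 TPM in control microglia 1, 2, 4 and 5. Xist RNA was present in all 4 KO mice and in control mice 1 and 2, and Ddx3y RNA in control mice 3, 4 and 5. Counts of members in which KO is set against control are therefore also given within these sets of controls, and values of single genes where stated. Assembly, tricarboxylic acid cycle, electron carrier, ATP synthase control, hypoxia and regulator genes are given against all controls only. One library titled as astrocytes of control mouse 3 carried microglial markers at 34479 TPM and astrocyte markers at 287.4 TPM and was assigned to no group.

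Promoter sequences are shown for 6 members that carry the results below, so that their start regions can be read beside their levels. They are the 250 bases before the annotated start from RefSeq (GRCm38.p6), 5′ to 3′ on the gene's own strand. Capitals mark matches to GCATGCGC (the core letters of the nuclear respiratory factor 1 motif) or to CCGGAAG (the core letters of the motif of ETS factors such as GABP), on either strand.
Cox5a, chr9:57520982-57521231, plus strand: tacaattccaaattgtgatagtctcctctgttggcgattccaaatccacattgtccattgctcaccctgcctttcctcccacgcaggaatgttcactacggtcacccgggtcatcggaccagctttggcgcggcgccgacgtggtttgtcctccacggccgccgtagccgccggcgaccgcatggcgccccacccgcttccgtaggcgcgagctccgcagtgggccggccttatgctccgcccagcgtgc
Cox5b, chr1:36691237-36691486, plus strand: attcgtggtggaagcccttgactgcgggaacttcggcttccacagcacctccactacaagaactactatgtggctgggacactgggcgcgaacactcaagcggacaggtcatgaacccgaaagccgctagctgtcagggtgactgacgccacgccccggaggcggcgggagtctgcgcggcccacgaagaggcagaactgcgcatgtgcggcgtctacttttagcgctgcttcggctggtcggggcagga
Cox6a1, chr5:115348959-115349208, minus strand: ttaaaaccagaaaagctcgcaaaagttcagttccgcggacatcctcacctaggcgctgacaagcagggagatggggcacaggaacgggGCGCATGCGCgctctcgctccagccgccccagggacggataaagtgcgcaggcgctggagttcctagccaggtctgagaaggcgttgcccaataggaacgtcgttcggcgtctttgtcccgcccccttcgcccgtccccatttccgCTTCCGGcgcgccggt
Cox7a1, chr7:30183921-30184170, plus strand: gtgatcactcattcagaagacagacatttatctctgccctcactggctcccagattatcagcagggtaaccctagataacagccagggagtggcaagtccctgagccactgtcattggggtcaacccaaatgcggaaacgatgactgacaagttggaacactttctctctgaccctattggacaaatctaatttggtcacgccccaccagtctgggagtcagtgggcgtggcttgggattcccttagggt
Uqcrh, chr4:116075071-116075320, minus strand: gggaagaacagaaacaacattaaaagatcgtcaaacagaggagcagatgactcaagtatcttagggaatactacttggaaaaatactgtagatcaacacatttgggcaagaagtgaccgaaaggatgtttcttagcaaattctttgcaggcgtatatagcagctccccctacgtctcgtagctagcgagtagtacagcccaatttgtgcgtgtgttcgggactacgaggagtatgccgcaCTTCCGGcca
Atp5k, chr5:108434400-108434649, minus strand: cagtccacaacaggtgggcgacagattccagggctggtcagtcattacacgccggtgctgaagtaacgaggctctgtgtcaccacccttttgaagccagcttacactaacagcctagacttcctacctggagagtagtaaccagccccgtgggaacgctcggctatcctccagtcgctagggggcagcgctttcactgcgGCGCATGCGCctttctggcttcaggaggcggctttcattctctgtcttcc

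Promoter sequences were held for 69 of the 83 described members. GCATGCGC or its reverse complement GCGCATGC, which overlap each other in Cox6a1 and Atp5k, was in 8 of the 69 (11.6%), against 692 of 27025 promoters of all genes (2.56%). CCGGAAG or CTTCCGG was in 12 of the 69 (17.4%), against 7.83% of all promoters. The letters ATGGCGGC (core of the YY1 motif) were in 2.90% of members' promoters and in 1.19% of all. The letters AAGGTCA (core of the estrogen-related receptor motif) were in 7.25% of members' promoters and in 4.70% of all. Members' promoters held a median of 14 CpG dinucleotides in these 250 bases, against 6 in all promoters, and the striated-muscle isoform gene Cox7a1 held 4 while Cox5a and Cox6a1 each held 26. These matches are descriptions of letters and show no binding.

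Most members were abundant RNAs in both cell types. The median member averaged 235.0 TPM in KO microglia and 201.6 TPM in control microglia, and 420.4 TPM in KO astrocytes and 430.1 TPM in control astrocytes. In KO microglia 66 members averaged 100 TPM or more, in control microglia 60, in KO astrocytes 73 and in control astrocytes 72. The member with the highest mean was Cox6b1 in KO microglia (902 ± 116 TPM, SD, n = 4), followed within its spread by Cox6a1 (889 ± 125 TPM), the bridging and stabilising subunits of the complex IV dimer. In the other groups it was Atp5b, the catalytic beta subunit of ATP synthase, at 673 ± 17.8 TPM in control microglia (n = 4), 1618 ± 153 TPM in KO astrocytes (n = 4) and 1748 ± 56.6 TPM in control astrocytes (n = 5). Besides the restricted isoforms described below, low members were Atp5s, with 5.97 TPM in KO microglia, 7.92 TPM in control microglia, 10.9 TPM in KO astrocytes and 13.2 TPM in control astrocytes on average, Ndufs1 (21.4 TPM in KO microglia and 25.8 TPM in control microglia) and Atp5sl (26.9 TPM in KO microglia and 26.7 TPM in control microglia). Cox5a and Cox5b, nuclear subunits of complex IV, were present in every library.

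In control mice, microglia held less subunit RNA than astrocytes as a share of the library, for all 5 complexes. Summed over the 83 members, control microglia 1, 2, 4 and 5 had 21540, 22451, 18308 and 16042 TPM, against 40455, 46602, 44936, 38818 and 39664 TPM in control astrocytes 1 to 5. The groups did not overlap, and members took 1.604 to 2.25% of each control microglia library and 3.88 to 4.66% of each control astrocyte library. Of the 83 members, 76 were lower and 2 higher in control microglia at an adjusted p under 0.05 (limma on log2(TPM + 1), Benjamini-Hochberg over all genes tested), beside a background of 39.5% of all genes lower and 26.2% higher. Their median difference was -1.14 on the log2 scale, against -0.19 over all genes. Every library of control microglia was below every library of control astrocytes for 73 members (33.8% of all genes), and above for 2 (22.6% of all genes). In these bulk samples fewer cells of a type and less RNA per cell cannot be told apart. Within control mice 1 and 2, 64 of 77 members tested were lower and 1 higher, beside 19.2% of all genes lower and 16.1% higher. Within control mice 3, 4 and 5, 75 of 79 were lower and 1 higher, beside 28.8% of all genes lower and 25.1% higher.

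**Figure D1:**
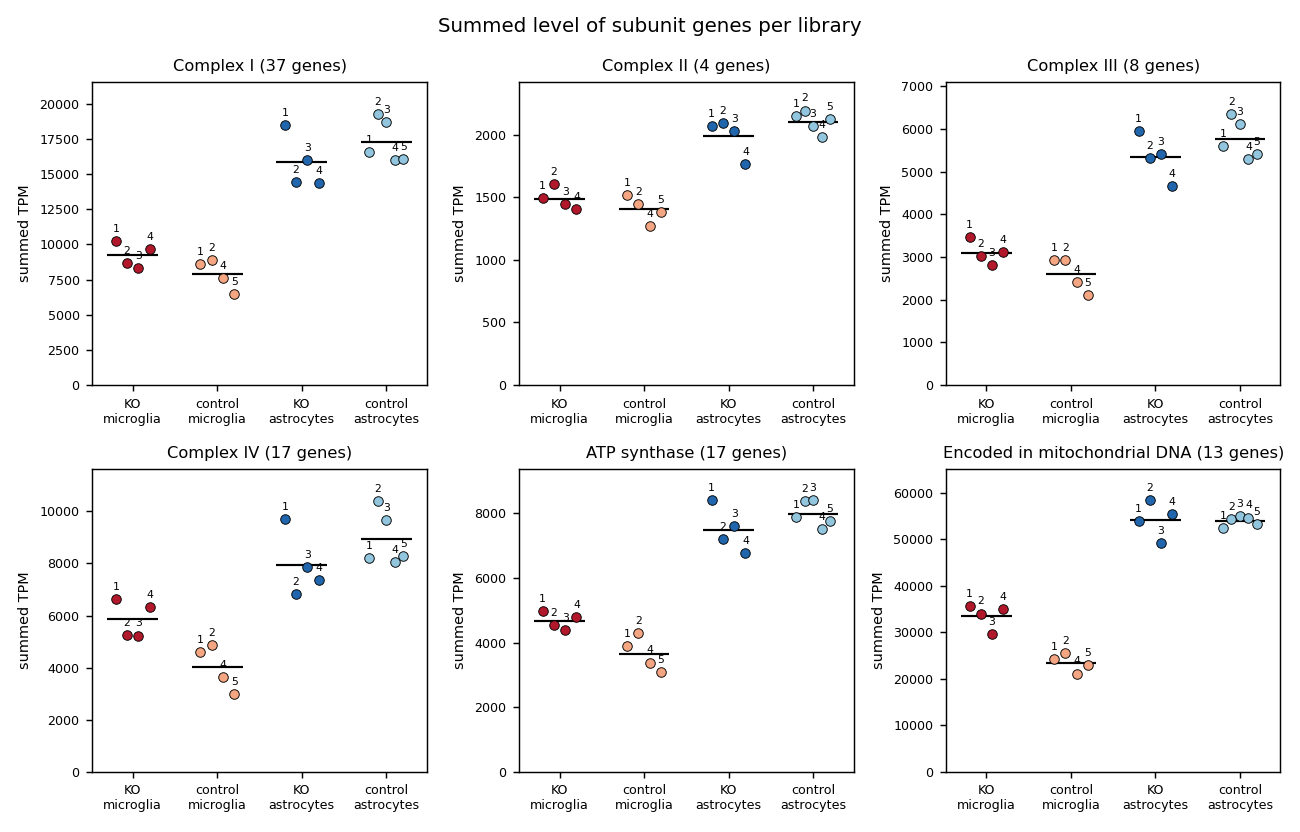
Each panel sums the TPM of one set of subunit genes (y axis, from 0) in each library, with points numbered by mouse and a line at the group mean, for KO microglia, control microglia, KO astrocytes and control astrocytes. Microglia lie below astrocytes in every panel, and the summed mitochondrially encoded genes of KO microglia (29540 to 35738 TPM) lie above those of control microglia (21142 to 25559 TPM).

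The size of this difference varied by complex. Control microglia minus control astrocytes had a median of -1.42 for the 17 complex IV members and -1.17 for the 8 of complex III. The medians were -1.14 for complex I, -0.92 for ATP synthase and -0.65 for complex II, which also takes part in the tricarboxylic acid cycle. Complex II thus had the smallest median, though all 4 of its members were lower in control microglia (-0.68 to -0.42) and single members of other complexes were closer. Sdha, its flavoprotein, had 414.5, 434.5, 420.4 and 429.7 TPM in control microglia, against 642.4, 659.3, 637.1, 678.3 and 726.4 TPM in control astrocytes (log2 difference -0.65 ± 0.06 SE, adjusted p = 5.3e-06). Ndufs5 and Ndufa12, accessory subunits of complex I, were the widely expressed members with the lowest ratio, at -2.0 ± 0.15 (adjusted p = 7.5e-07) and -1.99 ± 0.15 (adjusted p = 6.5e-07). Ndufs5 averaged 143 ± 33.4 TPM in control microglia (n = 4) and 567 ± 59.5 TPM in control astrocytes (n = 5).

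Core subunits that carry the flavin and iron-sulfur clusters of complex I were lower in control microglia for 6 of 7. Ndufv1, which binds NADH, averaged 160 ± 12.3 TPM in control microglia and 430 ± 17 TPM in control astrocytes (log2 difference -1.43 ± 0.08, adjusted p = 4.8e-08). Ndufs8 was the exception, at 150 ± 23.5 TPM in control microglia and 161 ± 9.17 TPM in control astrocytes (-0.11 ± 0.11, adjusted p = 0.42). Ndufa9, an accessory subunit, was also close, at 429 ± 47.9 TPM in control microglia and 411 ± 32.1 TPM in control astrocytes (0.06 ± 0.09, adjusted p = 0.62). The other 3 members that did not pass were the ATP synthase genes Atp5e and Atp5g2 and Atp5sl, whose product (Dmac2) is a complex I assembly protein and not a subunit of ATP synthase.

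The Rieske protein Uqcrfs1 and the F1 catalytic subunit Atp5b showed the same order with little spread between libraries. Uqcrfs1 had 241.2, 289.3, 238.0 and 278.8 TPM in control microglia, against 810.9, 848.2, 846.8, 749.4 and 775.3 TPM in control astrocytes (-1.62 ± 0.08, adjusted p = 3.3e-08). Atp5b had 653.8, 674.4, 666.6 and 696.3 TPM in control microglia, against 1840.0, 1735.9, 1709.1, 1697.0 and 1757.0 TPM in control astrocytes (-1.38 ± 0.05, adjusted p = 3.6e-09). The lowest control astrocyte library was thus above every control microglia library for both genes.

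Both higher members ran the other way. Cox7a2l, known as a factor for joining complexes III and IV into supercomplexes (not measured here), had 288.9, 266.9, 204.7 and 236.2 TPM in control microglia, against 125.7, 125.6, 115.0, 113.9 and 135.1 TPM in control astrocytes (1.00 ± 0.11, adjusted p = 1.7e-05). Cox6a2, the heart and muscle isoform of subunit 6a, had 12.3, 16.6, 10.8 and 4.1 TPM in control microglia, against 0.2, 1.0, 0.0, 3.4 and 3.5 TPM in control astrocytes (2.33 ± 0.53, adjusted p = 0.0029). All control microglia were above all control astrocytes for both, by a narrow margin for Cox6a2 in control microglia 5.

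Microglia were also lower than astrocytes in KO mice. Of 83 members, 64 were lower and 1 higher in KO microglia than in KO astrocytes, beside 42.9% of all genes lower and 26.4% higher, with a median of -0.71 against -0.24 over all genes. The summed members had 26773, 23112, 22172 and 25302 TPM in KO microglia 1 to 4, against 44653, 35891, 38866 and 34917 TPM in KO astrocytes 1 to 4. KO microglia were below KO astrocytes in every library for 58 members (40.7% of all genes) and above for 1 (24.7% of all genes). Cox7a2l was the higher one, at 355 ± 37.5 TPM in KO microglia and 142 ± 21.9 TPM in KO astrocytes (n = 4 each, log2 difference 1.33 ± 0.13, adjusted p = 9.5e-06). The lower members were 32 of 37 in complex I, 3 of 4 in complex II, 6 of 8 in complex III, 11 of 17 in complex IV and 12 of 17 in ATP synthase.

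Among the widely used complex IV genes, Cox6b1 had 1035, 844, 774 and 955 TPM in KO microglia and 1151.9, 762.2, 908.8 and 856.0 TPM in KO astrocytes, and these ranges overlapped (-0.02 ± 0.14, adjusted p = 0.91). Cox4i1 (-0.17 ± 0.13, adjusted p = 0.25) and Cox6a1 (-0.24 ± 0.16, adjusted p = 0.21) also missed the threshold in KO mice. Cox5a (-0.77 ± 0.13, adjusted p = 4.1e-04) and Cox5b (-0.64 ± 0.14, adjusted p = 0.0028) were lower. Without KO astrocytes 1 and 3, which held the most mural cell marker RNA (a comparison added after seeing the data), 53 of 81 members were called in place of 65 of 83. The share of all genes called also fell, from 69.4% to 58.2%.

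Restricted isoforms of complex IV and of Ndufa4 were mostly higher in astrocyte libraries, and those of complex IV were at low level in both cell types. Cox7a1, the heart and muscle isoform of subunit 7a, had 1.7, 3.3, 1.2 and 5.7 TPM in control microglia, against 32.2, 50.7, 39.8, 34.8 and 39.0 TPM in control astrocytes (-3.46 ± 0.30, adjusted p = 2.5e-06). Cox4i2, a subunit 4 isoform known for its role in oxygen sensing and its induction by low oxygen, had 0.2, 0.0, 0.7 and 0.3 TPM in control microglia, against 14.1, 12.6, 16.6, 32.3 and 29.9 TPM in control astrocytes (-4.01 ± 0.30, adjusted p = 8.2e-07). Neither gene overlapped between these groups. Cox7b2 (-3.34 ± 0.45, adjusted p = 7.0e-05) and Cox6b2 (-1.78 ± 0.25, adjusted p = 9.6e-05), both known from testis, and Cox8b (-1.42 ± 0.49, adjusted p = 0.027), a muscle isoform, were also lower in control microglia, with means of 0.05, 0.95 and 1.42 TPM in control microglia and of 11.6, 5.98 and 4.06 TPM in control astrocytes. Cox8b overlapped between the groups, since control microglia 2 had 4.8 TPM, and it missed the threshold without control microglia 1, 4 or 5 or control astrocytes 4 (adjusted p = 0.051 to 0.082). Differences of such low genes on the log2(TPM + 1) scale understate the ratio. Cox4i2 and Cox7b2 were under 1 TPM in every control microglia library, so both met the filter of this fit through astrocytes alone.

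Ndufa4l2, a paralog of Ndufa4 known to be induced by hypoxia-inducible factor, was the most variable member. It had 3.9, 0.2, 0.7 and 0.1 TPM in KO microglia and 0.0, 0.0, 1.8 and 0.1 TPM in control microglia. It had 236.3, 18.3, 328.0 and 113.6 TPM in KO astrocytes 1 to 4 and 12.7, 2.1, 39.8, 99.6 and 92.3 TPM in control astrocytes 1 to 5. The summed mural cell markers (5 genes, Pdgfrb, Rgs5, Vtn, Acta2 and Kcnj8, none at 0 in all libraries of a group) ran in the same order, with 6157, 702, 9434 and 3561 TPM in KO astrocytes and 394, 166, 1000, 3135 and 2838 TPM in control astrocytes, and 14.6 to 74.0 TPM in KO microglia and 4.0 to 100.5 TPM in control microglia. Cox4i2 had 56.5, 12.2, 73.7 and 29.2 TPM in KO astrocytes and, as given above, 12.6 to 32.3 TPM in control astrocytes, and its libraries stood in the same order as those sums in both groups. The part of mural cell RNA in the levels of Ndufa4l2 and Cox4i2 was not tested. KO astrocytes minus control astrocytes was 2.05 ± 1.12 for Ndufa4l2 (adjusted p = 0.45) and 0.81 ± 0.49 for Cox4i2 (adjusted p = 0.49).

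**Figure D2:**
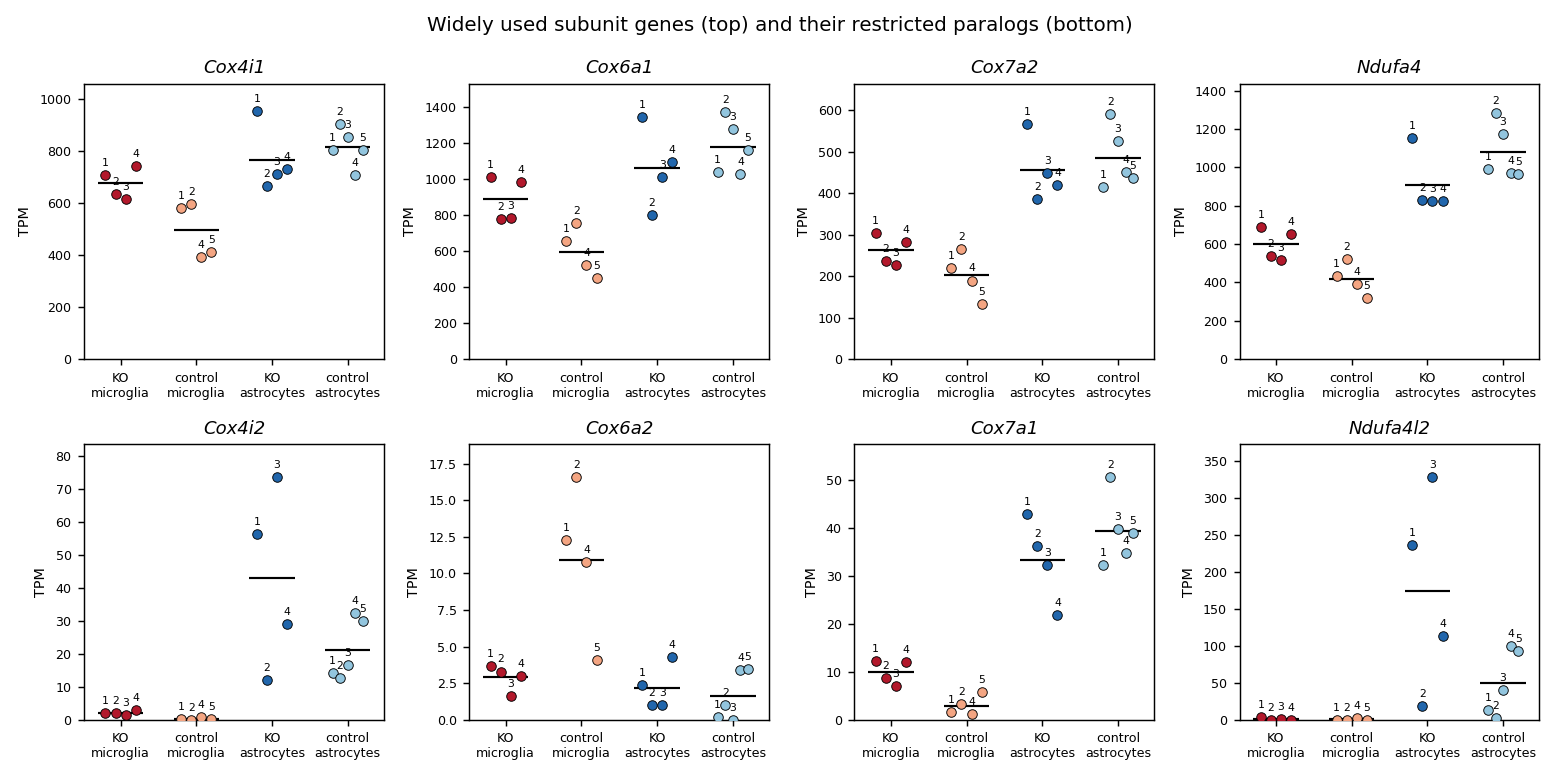
TPM (y axes, from 0) of 4 widely used subunit genes in the top row and of a restricted paralog of each in the bottom row, with points numbered by mouse and a line at the group mean, in KO microglia, control microglia, KO astrocytes and control astrocytes. The paralogs reach at most 328 TPM, Ndufa4l2 and Cox4i2 are highest in KO astrocytes 1 and 3, and Cox6a2 is highest in control microglia.

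As a share of the isoform pair, Cox7a1 made up 2.98 to 4.10% of Cox7a1 plus Cox7a2 in KO microglia and 0.630 to 4.15% in control microglia. In astrocytes the share was 4.94 to 8.56% in KO and 7.03 to 8.22% in control libraries. Cox6a2 made up 0.204 to 0.421% of Cox6a2 plus Cox6a1 in KO microglia and 0.901 to 2.15% in control microglia. Ndufa4l2 reached 28.5% of its pair with Ndufa4 in KO astrocytes and 9.30% in control astrocytes. Of the 3 genes for the same c-ring protein of ATP synthase, Atp5g3 was lower in control microglia (-1.75 ± 0.15, adjusted p = 2.4e-06), as was Atp5g1 (-0.87 ± 0.13, adjusted p = 2.0e-04), while Atp5g2 was at 175 ± 40.4 TPM in control microglia and 216 ± 16.2 TPM in control astrocytes (-0.33 ± 0.14, adjusted p = 0.066). Their mature proteins are near-identical, and how reads that match more than 1 of them were counted is not given in the sources used here.

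In microglia of KO mice a group of small and accessory subunits was higher than in control microglia, complex IV most often. The 7 core subunits of complex I that nuclear genes encode did not rise. Of the 80 members tested, 21 rose and 3 fell, beside a background of 14.2% of all genes higher and 14.2% lower, and the median change was 0.32 against 0.00 over all genes. Of the 22 members with all KO microglia above all control microglia (14.8% of all genes), 8 were of complex I and 9 of complex IV; 4 members had all KO microglia below all control microglia (15.7% of all genes). The strength of this result depended on which controls were used. Against control mice 1 and 2, which carried Xist RNA as the KO mice did, 6 members rose and 5 fell of 80 tested, beside 14.0% of all genes higher and 9.70% lower, with a median of 0.14 (0.07 over all genes). Both shares of members were below those of all genes. Against control mice 4 and 5, 44 of 79 rose and none fell, beside 15.3% of all genes higher and 14.5% lower, with a median of 0.54 (-0.06 over all genes). Of the 24 members called against all controls, 9 kept their call and direction against mice 1 and 2: Cox5a, Cox5b, Cox4i2, Cox7a1, Cox6a2, Ndufc1, Ndufs3, Ndufa9 and Atp5k. Cox4i2 is in each of these counts of members that rose. It met the filter of the fit through KO microglia alone, so its direction was set by the filter and adds no support.

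**Figure D3:**
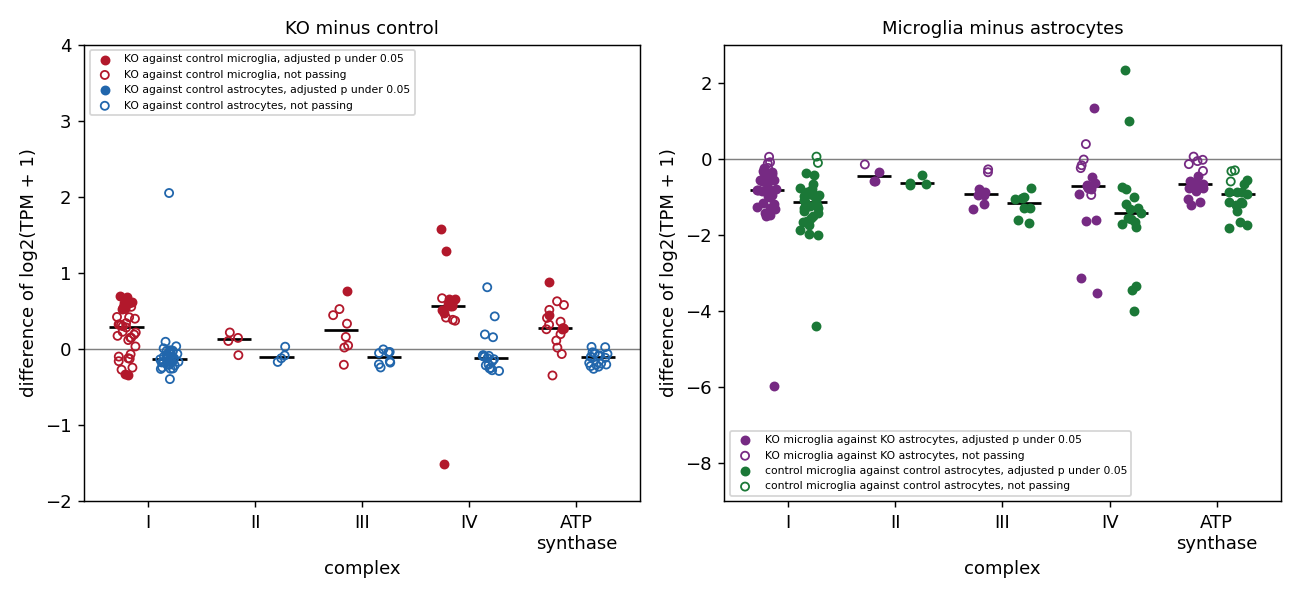
Differences of log2(TPM + 1) for each member by complex, filled where the adjusted p is under 0.05, with a line at the median of each column. Left, KO minus control in microglia and in astrocytes, where complex IV has the highest microglial median (0.57) and no astrocyte point is filled; right, microglia minus astrocytes in KO and in control mice, where nearly all points lie below 0.

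Of the 15 complex IV members tested, 9 rose, Cox4i2 with the limit given above among them, and 1 fell. Cox5a, a matrix-side subunit, had 524.1, 414.9, 467.2 and 516.1 TPM in KO microglia, against 346.6, 332.9, 277.8 and 268.0 TPM in control microglia (0.65 ± 0.12, adjusted p = 0.0024; 0.49 against control mice 1 and 2, adjusted p = 0.019). Cox5b, which carries the zinc site of the complex, had 419.3, 326.0, 334.4 and 360.9 TPM in KO microglia, against 285.4, 240.3, 235.0 and 166.0 TPM in control microglia (0.65 ± 0.16, adjusted p = 0.013; 0.45 against control mice 1 and 2, adjusted p = 0.044). The groups did not overlap for either gene. Exons of another annotated gene cover 41.7% of the Cox5a exons, and whether counting used strand is not given in the sources used here, so its reads may include those of its neighbour.

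Of the 10 widely used complex IV genes, Cox4i1 (0.47 ± 0.15, adjusted p = 0.043), Cox6a1 (0.59 ± 0.17, adjusted p = 0.026), Cox6b1 (0.57 ± 0.18, adjusted p = 0.038) and Cox7c (0.56 ± 0.16, adjusted p = 0.029) rose besides Cox5a and Cox5b. Against control mice 1 and 2 none of these 4 passed (Cox4i1 0.19, adjusted p = 0.22; Cox6a1 0.32, adjusted p = 0.14; Cox6b1 0.30, adjusted p = 0.14; Cox7c 0.39, adjusted p = 0.077). Cox6c (0.67 ± 0.22, adjusted p = 0.051), Cox8a (0.58 ± 0.21, adjusted p = 0.065), Cox7a2 (0.41 ± 0.20, adjusted p = 0.16) and Cox7b (0.38 ± 0.17, adjusted p = 0.13) missed the threshold. Cox7a2l rose, with 357.3, 351.9, 310.5 and 402.1 TPM in KO microglia against 288.9, 266.9, 204.7 and 236.2 TPM in control microglia (0.52 ± 0.12, adjusted p = 0.012). Ndufa4, first counted with complex I and now assigned to complex IV, rose by 0.54 ± 0.16 (adjusted p = 0.029), with 599 ± 84.5 TPM in KO microglia and 416 ± 83.1 TPM in control microglia. Against control mice 1 and 2, Cox7a2l (0.35, adjusted p = 0.072) and Ndufa4 (0.33, adjusted p = 0.15) did not pass.

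The restricted isoforms changed in both directions in KO microglia. Cox7a1 had 12.2, 8.7, 7.0 and 12 TPM in KO microglia, against 1.7, 3.3, 1.2 and 5.7 TPM in control microglia (1.57 ± 0.35, adjusted p = 0.0077). Cox4i2 had 2.1, 2.0, 1.5 and 3.1 TPM in KO microglia, against 0.2, 0.0, 0.7 and 0.3 TPM in control microglia (1.29 ± 0.23, adjusted p = 0.0022). Cox6a2 had 3.7, 3.3, 1.6 and 3.0 TPM in KO microglia, against 12.3, 16.6, 10.8 and 4.1 TPM in control microglia (-1.52 ± 0.37, adjusted p = 0.013). None of the 3 overlapped between the groups, and Cox6a2 came closest, since control microglia 5 had 4.1 TPM. Cox4i2 reached 1 TPM only in KO microglia, so it met the filter of the fit through that group alone. Against control mice 4 and 5, Cox6a2 was at -1.03 (adjusted p = 0.075). Cox8b had 1.6, 1.2, 0.0 and 4.4 TPM in KO microglia and 0.0, 4.8, 0.9 and 0.0 TPM in control microglia, and the groups overlapped (0.37 ± 0.64, adjusted p = 0.72). Cox6b2, Cox7b2 and Ndufa4l2 were too low in microglia to be tested between genotypes.

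In complex I none of the 7 nuclear-encoded core subunits rose. Ndufs1, the largest of the iron-sulfur subunits, had 20, 26.3, 22 and 17.2 TPM in KO microglia, against 25.9, 28.4, 24.7 and 24.1 TPM in control microglia (-0.27 ± 0.14, adjusted p = 0.20). Ndufv1 was at -0.13 ± 0.11 (adjusted p = 0.46). Ndufs3 fell, with 304.0, 275.7, 278.0 and 311.0 TPM in KO microglia, against 433.1, 375.8, 330.4 and 330.8 TPM in control microglia (-0.32 ± 0.10, adjusted p = 0.045). The accessory subunit Ndufa9 also fell, with 334.0, 370.9, 309.1 and 333.6 TPM in KO microglia, against 474.6, 465.8, 388.7 and 386.2 TPM in control microglia (-0.34 ± 0.10, adjusted p = 0.030). For both genes every KO library was below every control library, with the widest gap to control microglia 1. Against control mice 4 and 5, Ndufs3 (-0.18, adjusted p = 0.19) and Ndufa9 (-0.20, adjusted p = 0.16) did not pass. Of 8 runs without a single library, Ndufs3 kept its call in 2 and Ndufa9 in 3.

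Of the 28 other subunits of complex I, 7 rose: Ndufc1, Ndufa2, Ndufa5, Ndufa6, Ndufa7, Ndufa13 and Ndufb7. Ndufc1, a small membrane subunit, had 451.2, 313.3, 343.8 and 389.8 TPM in KO microglia, against 244.0, 267.3, 251.4 and 169.2 TPM in control microglia (0.69 ± 0.16, adjusted p = 0.011; 0.54 against control mice 1 and 2, adjusted p = 0.038). The other 6 rose by 0.52 to 0.68 and did not pass against control mice 1 and 2. Of complex II, Sdha (0.11), Sdhb (-0.08), Sdhc (0.22) and Sdhd (0.15) did not pass.

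In complex III 1 small subunit rose. The core proteins Uqcrc1 (0.02 ± 0.11, adjusted p = 0.92) and Uqcrc2 (-0.21 ± 0.10, adjusted p = 0.17) and the Rieske protein Uqcrfs1 (0.05 ± 0.09, adjusted p = 0.77) did not pass. Against control mice 1 and 2, Uqcrc2 was at -0.34 (adjusted p = 0.047). Uqcrh, the hinge protein between cytochrome c and cytochrome c1, had 675.1, 464.6, 476.5 and 584.8 TPM in KO microglia, against 408.9, 426.5, 269.1 and 222.2 TPM in control microglia (0.76 ± 0.22, adjusted p = 0.028; 0.38 against control mice 1 and 2, adjusted p = 0.13). All KO libraries were above all control libraries, and control microglia 4 and 5 were the lowest. The other 4 small subunits, Uqcrb (0.44), Uqcrq (0.16), Uqcr10 (0.52) and Uqcr11 (0.33), did not pass.

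In ATP synthase, Atp5k, the membrane subunit e, had 359.9, 284.3, 296.2 and 384.6 TPM in KO microglia, against 143.7, 227.5, 214.9 and 142.0 TPM in control microglia (0.88 ± 0.18, adjusted p = 0.0052). Its groups did not overlap, and it was as high against control mice 1 and 2 (0.86, adjusted p = 0.020) as against mice 4 and 5 (0.91, adjusted p = 0.0093). Atp5o, the stalk subunit that joins F1 to the membrane part, rose by 0.45 ± 0.14 (adjusted p = 0.043), and another annotated gene covers 100% of its exons. Atp5a1, the alpha subunit of F1, had 525.4, 602.8, 606.6 and 517.6 TPM in KO microglia, against 463.7, 469.4, 459.8 and 483.3 TPM in control microglia (0.26 ± 0.08, adjusted p = 0.038). Against control mice 1 and 2, Atp5o (0.24, adjusted p = 0.26) and Atp5a1 (0.27, adjusted p = 0.10) did not pass. Atp5a1 also missed the threshold against mice 4 and 5 (0.25, adjusted p = 0.11) and kept its call in 1 of 8 runs without a single library. The beta subunit gene Atp5b was at 0.19 ± 0.07 (adjusted p = 0.072), and the 3 c-ring genes were at 0.28 to 0.41 without passing.

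The genes that rose were mostly those with short transcripts. Of the 36 tested members with a median transcript length up to 700 bp, 14 rose and 1 fell, with a median of 0.52, while the 15 members over 1500 bp had 1 that rose and a median of 0.02. Other genes up to 700 bp had a median of 0.21 and 19.6% of them rose and 6.21% fell, against medians of -0.03 for other genes of 1500 to 3000 bp and -0.04 for longer ones. With the trend on transcript length removed from each library, 11 of 79 members rose and 3 fell, with a median of 0.17, and 13 of the 24 calls held. Of all genes in that fit, 14.7% rose and 15.4% fell, so that the share of members that rose was near that of all genes. The part of transcript length in the result was not tested further.

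**Figure D4:**
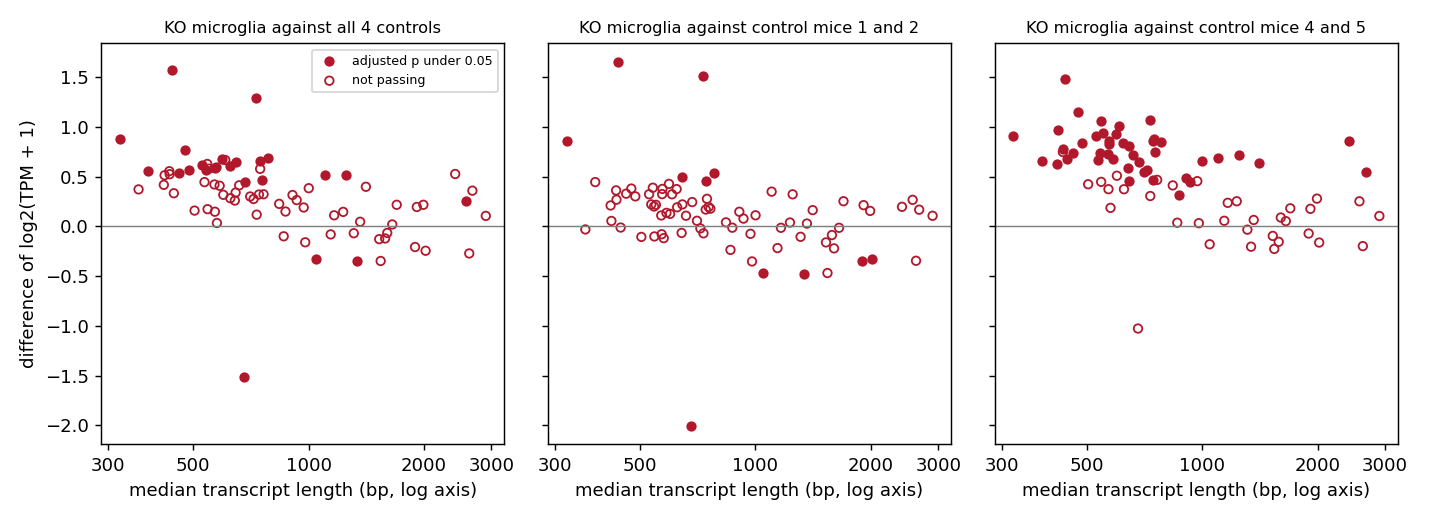
KO minus control microglia as a difference of log2(TPM + 1) (y axis) against median transcript length in bp (x axis, log scale), one point per member, filled where the adjusted p is under 0.05, with all 4 controls, with control mice 1 and 2, and with control mice 4 and 5. Filled points above 0 lie mostly under 1000 bp, and there are 21, 6 and 44 of them in the 3 panels.

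Leaving out single libraries changed the count from 24 to between 7 and 31, beside 21.5 to 28.3% of all genes called. It was 7 of 78 tested without KO microglia 1 (21.5% of all genes) and 8 of 78 without KO microglia 4 (23.2%). It was 13 of 80 without control microglia 4 (24.5%) and 13 of 80 without control microglia 5 (24.2%). In each of these 4 runs the share of members called was below that of all genes. The count was 17 of 78 without KO microglia 2 (23.1%) and 17 of 79 without KO microglia 3 (23.6%). Without control microglia 1 it was 22 of 80 (27.2%), and without control microglia 2 it was 31 of 79 (28.3%). Atp5k, Cox5a, Cox5b, Cox6a2, Cox7a1, Cox7a2l and Ndufc1 passed in all 8 runs without a single library. Cox4i2 passed in the 4 runs without a control library. It was not tested without a KO library, since it met the filter only with all 4 of them. Markers of border-associated macrophages moved with these changes: the 5 genes Mrc1, Pf4, Lyve1, Cd163 and F13a1 summed to 5031, 4394, 4727 and 4375 TPM in KO microglia, against 385, 292, 308 and 565 TPM in control microglia. Mrc1 and Pf4 made up most of the sum, none of the 5 was at 0 in all libraries of a group, and Lyve1 had 8.95 ± 2.78 TPM in KO microglia and 32.5 ± 30.5 TPM in control microglia. Neuron markers (6 genes) summed to 25.5, 70, 16.4 and 17.3 TPM in KO microglia, against 9.5, 9.9, 5.0 and 5.5 TPM in control microglia; of the 4 tested, Stmn2 and Nefl rose, and Rbfox3 was at 0.3 TPM or less in every microglia library. The summed astrocyte markers and the summed microglial markers were lower in KO microglia, as given above. Slc1a3 made up most of the astrocyte sum in control microglia (274.9 to 608.3 TPM, against 33.8 to 39.3 TPM in KO microglia), and of the 5 astrocyte markers tested Aldh1l1 and Aldoc rose and Slc1a3 fell. The part of these cell states or cells in the subunit result was not tested.

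The 13 subunits encoded in mitochondrial DNA were also higher in KO microglia. Their sum was 35738, 34051, 29540 and 35085 TPM in KO microglia, against 24366, 25559, 21142 and 22968 TPM in control microglia, and the groups did not overlap. Of the 13, 9 rose and none fell, beside 14.2% of all genes higher and 14.2% lower, with a median of 0.55. COX1, the catalytic subunit of complex IV, had 3431, 3616, 3180 and 4148 TPM in KO microglia, against 1957, 2155, 1732 and 2008 TPM in control microglia (0.87 ± 0.10, adjusted p = 1.7e-04). COX3 (0.72 ± 0.11, adjusted p = 9.3e-04), COX2 (0.68 ± 0.13, adjusted p = 0.0042) and ATP6 (0.61 ± 0.09, adjusted p = 6.7e-04) rose as well. Against control mice 1 and 2, 7 of the 13 still rose, COX1 by 0.80 (adjusted p = 0.0023). In that fit 14.0% of all genes were higher and 9.70% lower. Of the core of complex I, ND1 (0.37, adjusted p = 0.049), ND2 (0.57, adjusted p = 0.0040), ND3 (1.02, adjusted p = 0.032) and ND4 (0.52, adjusted p = 0.0015) rose against all controls. ND1 (adjusted p = 0.22) and ND3 (adjusted p = 0.087) did not pass against control mice 1 and 2. CYTB (0.22, adjusted p = 0.094), ND4L, ND5 and ND6 did not pass against all controls. All 13 were lower in control microglia than in control astrocytes (median -1.26), beside 39.5% of all genes lower. In KO mice 12 of 13 were lower in microglia than in astrocytes (median -0.70), beside 42.9% of all genes lower.

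Most genes that assemble or feed the complexes were not called in KO microglia, where 14.2% of all genes were higher and 14.2% lower. Of 15 assembly factors of complex I tested, 4 fell and 1 rose in KO microglia. The share that fell was above that of all genes, and the share that rose was below it. Ndufaf7, a methyltransferase of complex I assembly, had 26.0, 28.6, 27.2 and 29.3 TPM in KO microglia, against 60.0, 51.8, 61.4 and 54.4 TPM in control microglia (-1.01 ± 0.10, adjusted p = 7.0e-05). Tmem186 (-0.88 ± 0.15, adjusted p = 0.0017), Ndufaf4 (-0.63 ± 0.14, adjusted p = 0.0092) and Ndufaf3 (-0.62 ± 0.17, adjusted p = 0.023) also fell, while 1810043H04Rik, the gene of Ndufaf8, rose by 0.60 ± 0.14 (adjusted p = 0.011). Over all 49 assembly factors tested 4 rose and 6 fell, with a median of 0.07, and both shares were below those of all genes. Of 17 tricarboxylic acid cycle genes, Suclg2, a subunit of succinyl-CoA ligase, fell (-0.50 ± 0.15, adjusted p = 0.032), none rose, and the median was -0.06. In control mice 14 of these 17 were lower in microglia than in astrocytes, beside 39.5% of all genes, among them Cs, citrate synthase, with 114 ± 13.8 TPM in control microglia and 534 ± 47.2 TPM in control astrocytes (-2.22, adjusted p = 1.5e-08).

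Among 17 electron carriers and feeders tested, 1 rose and 2 fell in KO microglia, both shares below the 14.2% of all genes higher and 14.2% lower. Gpd2, the mitochondrial glycerol-3-phosphate dehydrogenase that passes electrons to ubiquinone, had 8.8, 12.1, 10.2 and 7.7 TPM in KO microglia, against 3.0, 1.2, 3.7 and 2.3 TPM in control microglia (1.63 ± 0.25, adjusted p = 0.0010). Cycs, cytochrome c, fell (-0.40 ± 0.12, adjusted p = 0.037), as did Coq2, an enzyme of ubiquinone synthesis (-0.73 ± 0.24, adjusted p = 0.045). Of 12 carriers and controls of ATP synthase tested, 4 rose and 3 fell, both shares above those of all genes. Atpif1, the inhibitor of ATP hydrolysis by ATP synthase, had 385.6, 306.9, 307.1 and 340.2 TPM in KO microglia, against 230.2, 234.0, 179.8 and 141.9 TPM in control microglia (0.79 ± 0.16, adjusted p = 0.0056). The inner membrane carrier Ucp2 rose by 0.82 ± 0.15 (adjusted p = 0.0027), and the outer membrane channel Vdac2 fell, with 437 ± 30.8 TPM in KO microglia and 696 ± 83.2 TPM in control microglia (-0.67 ± 0.10, adjusted p = 9.2e-04). Slc25a31, an ADP/ATP carrier known from testis, had 9.6, 6.5, 6.9 and 3.6 TPM in KO microglia and was listed at 0 in all 4 control microglia (adjusted p = 2.3e-05). It met the filter of the fit through KO microglia alone.

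In astrocytes of KO mice no member passed the threshold. None of the 83 was called (limma; 5 had an unadjusted p under 0.05), beside a background of 0.00657% of all genes higher (1 of 15231) and 0% lower. The median change was -0.12 against 0.07 over all genes, and 72 members were below 0. No member had KO astrocytes all above (2.94% of all genes) or all below (1.46%) control astrocytes. Cox5a had 861.7, 923.6, 840.5 and 659.6 TPM in KO astrocytes, against 1039.5, 1026.2, 1078.5, 866.3 and 857.6 TPM in control astrocytes (-0.25 ± 0.12, adjusted p = 0.41). The 95% interval of the difference ran from -0.52 to 0.02 for Cox5a and from -0.62 to 0.06 for Cox5b (-0.28 ± 0.15, adjusted p = 0.45), and the libraries of both groups overlapped. The count was also 0 with control mice 1 and 2 and with control mice 3, 4 and 5. These values do not show that astrocytes were alike, only that differences of this size did not pass.

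The change in KO microglia differed from that in KO astrocytes for 18 of 83 members, all 18 towards higher values in microglia, beside 6.63% of all genes with a higher and 8.87% with a lower difference. The median of the differences was 0.45, against -0.06 over all genes, and since each is made from the 2 genotype comparisons, it repeats their samples. The 18 were 4 of complex I (Ndufa4, Ndufa6, Ndufa13 and Ndufc1), 2 of complex III (Uqcrh and Uqcr10), 8 of complex IV (Cox5a, Cox5b, Cox6a1, Cox6b1, Cox6c, Cox7a1, Cox7c and Cox8a) and 4 of ATP synthase (Atp5b, Atp5j2, Atp5k and Atp5o). The difference was 1.83 ± 0.41 for Cox7a1 (adjusted p = 0.0054), 0.93 ± 0.23 for Cox5b (adjusted p = 0.010) and 0.90 ± 0.17 for Cox5a (adjusted p = 0.0012). For Atp5b, which passed in neither cell type alone, it was 0.31 ± 0.09 (adjusted p = 0.035). None of the 7 nuclear-encoded core subunits of complex I, the 4 of complex II or the 3 core and Rieske proteins of complex III passed.

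With control mice 1 and 2 alone, 3 of these 18 still passed (Cox5a, Cox5b and Cox7a1) among 3 members with a higher and 1 with a lower difference, beside 4.99% of all genes higher and 6.10% lower. With control mice 3, 4 and 5, 30 were higher and 17 of the 18 held, beside 6.23% of all genes higher and 7.65% lower. The count was 29 without control microglia 2, and between 7 and 11 without KO microglia 1 (7), KO microglia 4 (10), control microglia 4 (9), control microglia 5 (11), KO astrocytes 2 (11), KO astrocytes 3 (11), KO astrocytes 4 (9), control astrocytes 2 (9) or control astrocytes 3 (10). Each of these runs tested 83 members, and 12.3 to 16.1% of all genes were called in them. Atp5k, Cox5a, Cox5b, Cox7a1, Ndufa4 and Uqcrh passed without each library in turn. Of the 13 mitochondrially encoded genes, 8 also differed with all controls, COX1 by 0.94 (adjusted p = 2.4e-05), all 8 towards higher values in microglia. Of all genes in that fit, 6.63% had a higher and 8.87% a lower difference.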

How the data were processed

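Libraries were made from total RNA of sorted microglia and astrocytes and sequenced as paired reads of 61 bp, per the labels' protocols. Trim Galore 0.4.2, cutadapt 1.9.1, STAR 2.6.1e, featureCounts 1.6.2 and the build mm10 are named in the submitters' processing notes, and their settings, the annotation, strand and the treatment of reads with several matches are not given in the sources used here. The authors deposited one TPM value per gene and library, to 1 decimal, and the 18 libraries summed to between 999960 and 999984 over 35869 symbols. TPM is scaled within a library, so a rise of some genes lowers the others, and depth is not kept.

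From these values, log2(TPM + 1) was fitted with limma 3.58.1 in R 4.3.3 (variance trend, two-sided, Benjamini-Hochberg over all genes tested) for genes with at least 1 TPM in 4 or more libraries of the fit. This gave 5 comparisons: KO against control in each cell type, the difference of these, and microglia against astrocytes in control and in KO mice. A fold change on the log2(TPM + 1) scale understates the change of low genes. The scripts were tested on simulated data. Gene positions and median transcript lengths came from GENCODE M21 (GRCm38), where 83 of the 84 members had a match (Atp5sl had none), and promoters from RefSeq (GRCm38.p6). Errors of differences are standard errors.

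The members, the gene lists and the tests were chosen with earlier results of these data known. Named members are Cox5a, Cox5b, core subunits, isoform sets, and up to 5 in each direction per comparison with the largest difference among those called; of each other list, up to 3 with the smallest adjusted p. Other members are named to account for a count, after their values were seen. Mouse numbers pair the microglia and astrocytes of one animal by the titles, with correlations of same-numbered deviations of 0.03 to 0.19. KO and control mice share only numbers. Nothing in the labels says how many mice a library pooled, and p-values measure the spread between these libraries. The library that goes against its title was left out of all tests. Alternatives are in the closing section. A result for 1 member is not reported here.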

Additional observations from a re-analysis of the deposited data

Results flagged for a closer look

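Across 36 named members and 4 groups, 7 libraries stood apart from the rest of their group, and by chance about 1 in 20 groups would hold such a library. In KO astrocytes, library 1 was far above the others for Atp5g2 (277.2 TPM) and Ndufa4 (1150.3 TPM). In control astrocytes, library 4 was highest for Cox8b (7.2 TPM) and library 2 lowest for Ndufs1 (39.7 TPM). In microglia, Ndufa4l2 stood apart at 3.9 TPM in KO microglia 1 and at 1.8 TPM in control microglia 4, and Cox7b2 at 0.2 TPM in control microglia 2. KO microglia 1 and control microglia 4 were also the libraries of their groups with the most mural cell marker RNA (74.0 and 100.5 TPM); its part was not tested.

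For 12 named members, the change in KO microglia differed from that in KO astrocytes by the test of the difference itself. On the log2 scale the difference was 0.31 for Atp5b, 0.97 for Atp5k, 0.90 for Cox5a, 0.93 for Cox5b, 0.75 for Cox6a1, 0.78 for Cox6b1 and 0.79 for Cox6c. It was 1.83 for Cox7a1, 0.87 for Cox8a, 0.79 for Ndufa4, 0.79 for Ndufc1 and 0.94 for Uqcrh. All 12 were higher in microglia, and of these Cox5a, Cox5b and Cox7a1 also passed with control mice 1 and 2 alone.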

How the results depend on the processing

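The lower level of members in microglia than in astrocytes held under each alternative run, with 65 to 80 members called in control mice and 53 to 68 in KO mice. The share of all genes called was 35.2 to 69.6% in control mice and 47.4 to 72.5% in KO mice. With quantile normalization the median of all genes was 0.11 in control mice (-0.19 without it) and 0.11 in KO mice (-0.24 without it), and that of members -1.01 and -0.64. The replicate block left 78 and 68 called there (63.5 and 69.0% of all genes) and 24 for the difference of the KO changes (14.0% of all genes). In astrocytes the count was 0 throughout. For KO against control microglia, 24 of 80 members were called, beside 28.4% of all genes. The count was 9 of 83 with no filter (13.7% of all genes), 14 with no variance trend (27.5%) and 46 with array weights (34.0%). It was 11 with control mice 1 and 2 (23.7%), 44 with the other controls (29.8%) and 7 to 31 without single libraries (21.5 to 28.3%). Added after seeing the data, it was 14 with the length trend removed (30.1%). With the replicate block it was 4 (15.9% of all genes), where KO and control share only a number (correlations of deviations from -0.004 to 0.016 in microglia). For the difference of the KO changes, 18 of 83 members were called, beside 15.5% of all genes. The count was 9 with no filter (8.01% of all genes), 10 with no variance trend (14.9%) and 40 with array weights (20.9%). It was 4 with control mice 1 and 2 (11.1%) and 30 with mice 3, 4 and 5 (13.9%). It was 10 with mice that gave both cell types (14.6%) and 7 to 29 without single libraries (12.3 to 16.1%). Ndufa9 in KO microglia against KO astrocytes (-0.25) reversed to 0.021 with the length trend removed. The cause was not tested for these. Depth is unknown, and low isoforms are limited by the 1 decimal of the files.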

Other observations

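In KO against control microglia, 14.2% of all genes were higher and 14.2% lower. Of 12 regulators of mitochondrial gene expression tested in microglia, Gabpb1, a subunit of the ETS factor GABP, fell, with 5.55 ± 0.545 TPM in KO microglia and 8.17 ± 0.59 TPM in control microglia (SD, n = 4 each, -0.49 ± 0.14 SE, adjusted p = 0.029 by limma), and none rose. Ppargc1a, a coactivator of mitochondrial genes, was listed at 0 in all 8 microglia libraries and had 5.6, 10.7, 9.0 and 5.8 TPM in KO astrocytes and 9.6, 8.9, 9.7, 8.0 and 10 TPM in control astrocytes. Among 8 tested genes known as targets of hypoxia-inducible factor, 1 rose and 2 fell. Slc2a1, the glucose transporter GLUT1, had 32.2, 22.4, 27.1 and 26.8 TPM in KO microglia against 46.8, 67.3, 74.2 and 68.3 TPM in control microglia (-1.20 ± 0.17, adjusted p = 5.2e-04). Pdk1, a kinase that holds back pyruvate dehydrogenase, fell too (-0.92 ± 0.15, adjusted p = 0.0017), while Car9 rose (1.41 ± 0.39, adjusted p = 0.023), with 7.8, 6.4, 8.0 and 9.4 TPM in KO microglia against 2.9, 6.4, 1.1 and 1.0 TPM in control microglia.

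The library assigned to no group summed to 24201 TPM over the 83 members and to 27648 TPM over the 13 mitochondrially encoded genes. It had 383.6 TPM of Cox5a, 340.6 TPM of Cox5b, 245.6 TPM of Atp5k, 303.9 TPM of Cox7a2l and 33.9 TPM of Cox6a2. It had 4.6 TPM of Cox7a1 and 0.1 TPM of Ndufa4l2, was listed at 0 for Cox4i2 and Xist, and had 46.0 TPM of Ddx3y.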
